A study of Mus musculus with 29 samples.

Results

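The 33 genes described here encode the enzymes and carriers that oxidise fatty acids in mitochondria and peroxisomes. They were chosen by symbol, with earlier results of these data known. Each was found once among the 54532 rows of the table of naive, Th0 and Treg cells and once among the 55421 rows of the table of Smad guides. By role they comprise 5 genes of the carnitine shuttle, 7 straight-chain and 2 branched-chain acyl-CoA dehydrogenases, 6 mitochondrial enzymes of the later steps, 3 auxiliary enzymes for unsaturated chains, 5 peroxisomal enzymes, 3 genes of electron transfer to ubiquinone and both subunits of propionyl-CoA carboxylase. All cells were splenic CD4 T cells of C57BL/6 mice. The naive cells were not cultured. Th0 cells had spent 5 days in medium with 15 ng/ml of IL-2, and Treg cells 5 days with the same IL-2 and, in addition, 10 ng/ml of human TGF-beta, 3 libraries in each group. A separate experiment used Treg cultures made in the same way, 2 libraries in each group: a control with no guide RNA in its labels, and cultures labelled with a guide for Smad2 (sgSmad2), a guide for Smad3 (sgSmad3) or the pair (sgSmad2/3). Smad2 and Smad3 carry the TGF-beta signal to the nucleus, and the study looked for lipid synthesis genes raised in Treg cells and for the role of both factors in expression of Acsl6, an acyl-CoA synthetase gene. The labels leave the age of the mice and the origin of replicate libraries unstated, so a p-value here reflects only how far these libraries scatter, and that scatter may be technical.

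Long-chain fatty acids enter mitochondria as carnitine esters. Cpt1a makes the ester on the outer membrane, Slc25a20 carries it across the inner membrane and Cpt2 returns the acyl group to CoA. Each turn of the spiral then oxidises the acyl-CoA with a chain-length-selective dehydrogenase, hydrates it, oxidises it again and cleaves off acetyl-CoA, and the electrons of the first step pass through the flavoprotein Etfa/Etfb and Etfdh to ubiquinone. Peroxisomes shorten very long and branched chains by a parallel set of enzymes. The pathway is widely studied in T cells because Treg and memory cells have been described as relying on it more than effector cells, which favour glycolysis.

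Expression was measured with 3' tag sequencing (QuantSeq), which reads near the 3' end of polyadenylated transcripts. Levels are in CPM, the reads of a gene per 1000000 counted reads, and are not divided by transcript length, so ratios between genes served only to compare libraries. Libraries held 797612 to 1551478 reads in the cell-type experiment and 1294583 to 1602297 in the guide experiment, and the limit that 0 reads set (3 reads, counting error only) was at most 3.76 and 2.32 CPM. Foxp3, the transcription factor that defines Treg cells, stood at 138 to 207 CPM in Treg and 8.57 to 13.8 in Th0 libraries, but at 82.7 to 91.7 CPM in the libraries labelled naive. Naive libraries also carried more RNA of red cells, B cells and myeloid cells. The summed level of 5 red cell genes was 496 to 1172 CPM in naive, 4.90 to 5.55 in Th0 and 0 to 4.51 in Treg libraries, with Hbb-bt and Alas2 at 0 in every culture. That of 10 B cell genes was 359 to 748, 105 to 125 and 105 to 114 CPM, and that of 9 myeloid genes 32.7 to 97.9, 0 to 4.24 and 1.93 to 3.92 CPM, with Lyz2 at 0 in every culture. The sum of 8 CD8, NK and gamma-delta genes was 70.1 to 90.3, 40.4 to 65.7 and 60.7 to 98.0 CPM, so Treg and naive libraries overlapped. Gm42418, a transcript that shares sequence with ribosomal RNA, took 10.3 to 11.4% of the reads in naive, 6.59 to 7.88% in Th0 and 7.11 to 8.78% in Treg libraries, so the naive share lay above that of every culture. The part of these cells and of Gm42418 in the differences from naive libraries was not tested, and in bulk RNA fewer cells of a type and less RNA per cell cannot be told apart.

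In culture, single enzymes at several steps of the pathway rose while most of the other members showed no detected change. Acadl, Acads, Cpt2, Hadha, Eci2, Etfa and Etfb were higher than in naive cells in both cultures. Decr1 passed in Treg, and Acadvl and Ehhadh passed in Th0. Acad10 and Pcca were lower in Treg, and Hadhb was lower in Th0. Of the 33 genes 8 were thus higher and 2 lower in Treg, and 9 higher and 1 lower in Th0 (limma, Benjamini-Hochberg adjusted p at or under 0.05 over 14165 genes). That is 30.3% of the members in each comparison, below the 39.9% of all genes called in Treg and the 41.9% called in Th0. By direction, 23.3% of all genes were higher and 16.5% lower in Treg, and 24.3% and 17.6% in Th0. The members' higher calls lay near these shares and their lower calls below them. The members called include Ehhadh in Th0 and Acad10 in Treg, which passed the filter on low values only through the groups where they were higher. With 1 library left out the 10 calls in Th0 fell to between 6 (without Th0 replicate 1) and 9, and the 10 in Treg to between 7 and 9. Libraries of Treg and naive cells did not overlap for 10 of the 33 genes, against 48.1% of all genes, and those of Th0 and naive cells for 12, against 48.4%. Both comparisons use the same naive libraries.

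The median log2 change of the 33 genes was 0.07 in Treg and 0.01 in Th0, beside 0.08 and 0.08 for all genes tested. It stayed at these values with Acad10 and Ehhadh, which rest on a group at 0, left out. Quantile scaling moved the median of all genes by over 0.1, to -0.04 in Treg and -0.03 in Th0, and that of the members to -0.11 and -0.19. The members called were then 6 higher and 4 lower in Treg and 7 higher and 4 lower in Th0. No call named above changed direction in the alternatives run. Summed over the 33 genes, the level was 738, 851 and 791 CPM in naive, 959, 991 and 1080 in Th0 and 962, 1005 and 949 in Treg libraries, so each culture library stood above each naive one. Abundant members weigh most in such a sum, among them Acadl, Hadha and Etfb, which were called higher in both cultures. Not every role rose. Mean sums in naive, Th0 and Treg were 169, 285 and 247 CPM for straight-chain dehydrogenases and 301, 342 and 331 for the later mitochondrial steps. They were 31.6, 57.8 and 71.8 for auxiliary enzymes and 52.8, 116 and 104 for electron transfer. The carnitine shuttle had 89.9, 76.4 and 96.8, and branched-chain dehydrogenases 30.1, 29.8 and 30.5. Peroxisomal enzymes had 65.5, 56.8 and 58.2, and propionyl-CoA carboxylase 54.5, 46.9 and 33.1.

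**Figure D1:**
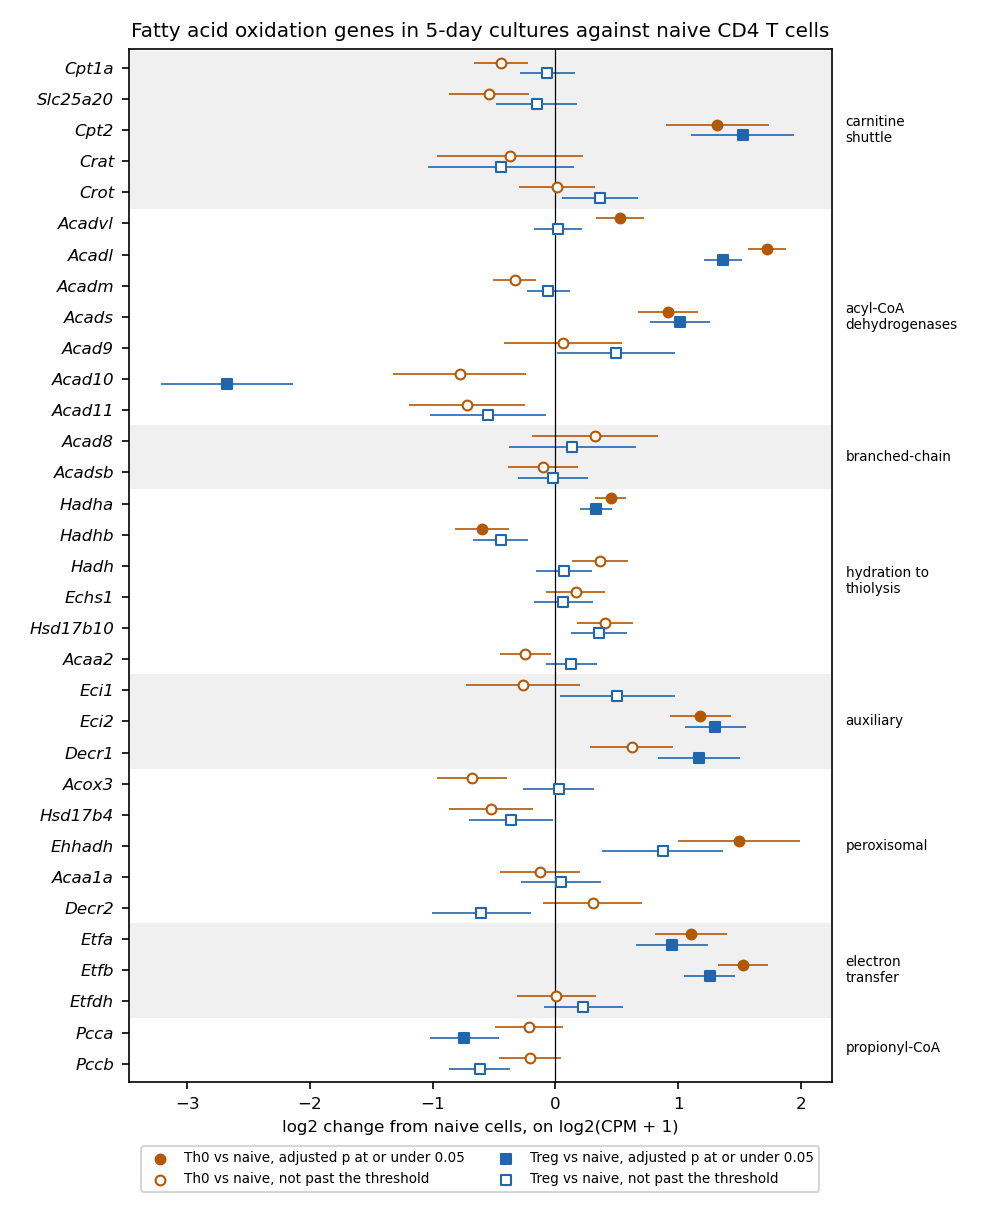
Log2 change of each of the 33 genes from naive cells to Th0 (circles) and Treg (squares) cultures, on the x axis in log2(CPM + 1), with the standard error as a bar, 3 libraries in each group; filled symbols passed the test and genes are banded by role. Acadl, Etfb, Eci2 and Cpt2 lie at 1.18 or more in both cultures; the points of Acad10 and Ehhadh rest on a group at 0, so their distance from 0 is no measure of a fold.

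Upstream sequence was taken from RefSeq (GRCm38.p6) for the 28 of 33 members with an entry, as the 250 bases before each start. The GC box (GGGCGG, bound by Sp1-family factors) lay in the windows of 21 of the 28 genes, 75% against 32.7% of all 32851 windows of that length, and the windows' median G and C content was 59.6% against 52.4%. The CCAAT box (CCAAT) lay in 13 (46.4% against 33.8%). The NRF1 site (GCGCA and GCGC with 1 base between, bound by a factor of mitochondrial genes) lay in 4, namely Acad10, Etfb, Etfdh and Pccb (14.3% against 3.74%), and the ETS core (CCGGAAG) in 3, namely Cpt2, Crot and Slc25a20 (10.7% against 6.91%). The ERR element (TCAAGGTCA), the PPAR direct repeat (AGGTCA repeated with 1 base between), the E-box (CACGTG) and the Smad palindrome (GTCTAGAC) were found in 0 members, against 0.387%, 0.0335%, 6.02% and 0.167% of all windows. Both strands were searched, and a match describes letters only.

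Members called in both cultures were ranked by the larger of their changes in Th0 and Treg, and the windows of the first 3, Acadl, Etfb and Cpt2, are shown. Ranked by the change in Treg alone, Eci2 stands above Etfb. The sequences are given 5' to 3' on the strand of the gene and ending at the base before its start. Capitals mark GC boxes, CCAAT boxes, NRF1 sites and ETS cores on either strand.
Acadl, chr1:66863310-66863559, - strand: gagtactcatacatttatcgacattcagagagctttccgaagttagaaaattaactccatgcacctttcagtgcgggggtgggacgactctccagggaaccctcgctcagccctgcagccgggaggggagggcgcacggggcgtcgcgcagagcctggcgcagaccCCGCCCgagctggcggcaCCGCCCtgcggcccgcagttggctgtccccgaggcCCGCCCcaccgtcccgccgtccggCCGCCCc
Etfb, chr7:43443822-43444071, + strand: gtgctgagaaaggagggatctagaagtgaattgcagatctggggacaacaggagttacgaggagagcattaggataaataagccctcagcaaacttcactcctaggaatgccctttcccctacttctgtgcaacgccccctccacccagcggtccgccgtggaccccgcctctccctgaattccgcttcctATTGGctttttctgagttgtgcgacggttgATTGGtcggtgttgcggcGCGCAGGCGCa
Cpt2, chr4:107923590-107923839, - strand: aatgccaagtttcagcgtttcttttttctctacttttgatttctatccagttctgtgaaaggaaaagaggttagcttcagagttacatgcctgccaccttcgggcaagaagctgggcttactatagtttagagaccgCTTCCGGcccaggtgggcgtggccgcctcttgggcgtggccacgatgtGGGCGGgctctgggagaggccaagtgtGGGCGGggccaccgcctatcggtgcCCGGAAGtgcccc
The window of Acadl held 4 GC boxes, all on the opposite strand, and that of Etfb 2 CCAAT boxes and 1 NRF1 site next to the start. The window of Cpt2 held 2 GC boxes and 2 ETS cores. None of the marked motifs was in all 3 windows.

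Among the acyl-CoA dehydrogenases, which catalyse the first oxidation, Acadl and Acads rose in both cultures. Acadl (ENSMUSG00000026003, chr1:66830839-66863309), the long-chain enzyme, had 42.6, 37.2 and 37.4 CPM in naive, 106, 135 and 157 in Th0 and 106, 112 and 90.1 in Treg libraries. All 6 culture libraries lay above all 3 naive ones. The log2 change of Acadl was 1.72 (SE 0.16, adjusted p = 3.0e-08), or 3.30-fold, in Th0 and 1.37 (SE 0.16, adjusted p = 7.6e-07), or 2.58-fold, in Treg. Acads (ENSMUSG00000029545, chr5:115110299-115119346), the short-chain enzyme, had 27.6, 21.1 and 18.7 CPM in naive, 29.7, 52.2 and 50.2 in Th0 and 37.7, 43.2 and 58.8 in Treg libraries. The lowest Th0 library was near the highest naive one, but neither culture overlapped naive. Acads changed by 0.92 (SE 0.24, adjusted p = 0.0052) in Th0 and 1.01 (SE 0.24, adjusted p = 0.0025) in Treg.

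Acadvl, the very-long-chain enzyme, had 38.9, 48.3 and 31.6 CPM in naive, 66.7, 59.9 and 45.3 in Th0 and 40.9, 36.7 and 41.1 in Treg libraries. Only Th0 stood higher, with 1 of its libraries inside the naive range. The change of Acadvl in Th0, 0.53 (SE 0.20, adjusted p = 0.039), lost its call in 9 of 16 alternatives, among them those without naive replicate 1 or 3 or Th0 replicate 1 or 2 (adjusted p up to 0.16). In Treg it was 0.02 (adjusted p = 0.96). Acadm, the medium-chain enzyme, had 49.3 ± 3.85 CPM in naive, 39.2 ± 5.75 in Th0 and 47.2 ± 3.27 in Treg cells (SD, n = 3), with adjusted p = 0.14 and 0.83 by limma. Acad9, Acad11 and the branched-chain enzymes Acad8 and Acadsb had group means of 3.28 to 24 CPM and no call.

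Acad10, a dehydrogenase that also carries a kinase-like domain, was at 0 in every Treg library of the cell-type experiment. It had 2.51, 9.91 and 5.84 CPM in naive, 4.24, 1.11 and 3.67 in Th0 and 0, 0 and 0 in Treg libraries, from 15, 8 and 0 reads. The naive mean, 6.09 CPM, was above the limit of 3 reads in the shallowest Treg library, 3.23 CPM. That mean rests on 15 reads, and naive replicate 1 lay under the limit at 2.51 CPM, so no fold is given. The call of Acad10 as lower in Treg than in naive cells (limma adjusted p = 0.00051) is on a gene that passed the filter on low values only through its naive and Th0 libraries. In the guide experiment, whose cells are also Treg cultures, Acad10 had 4 and 4 in the control, 1 and 5 in sgSmad2, 2 and 5 in sgSmad3 and 3 and 3 in sgSmad2/3 libraries, above 0 in every library.

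In the carnitine shuttle only Cpt2 was called. Cpt2 (ENSMUSG00000028607, chr4:107903982-107923589), the inner-membrane palmitoyltransferase, had 3.76, 3.72 and 2.34 CPM in naive, 11.7, 6.66 and 11 in Th0 and 12.9, 7.73 and 13.7 in Treg libraries. Every culture library lay above every naive one, but the naive level rests on 8 reads in all. The ratio of pooled reads per 1000000 was 3.00 for Th0 (95% exact interval 1.32 to 7.68) and 3.34 for Treg (1.53 to 8.28), intervals of counting error only. Cpt2 changed by 1.53 (SE 0.42, adjusted p = 0.0067) in Treg and by 1.32 (SE 0.42, adjusted p = 0.016) in Th0, where the call was lost without naive replicate 3 or Th0 replicate 1 or 3 (adjusted p up to 0.059).

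Cpt1a, the step usually taken as rate-limiting for entry into mitochondria, had 37.6, 52 and 28.1 CPM in naive, 27.5, 30.0 and 25.7 in Th0 and 35.5, 39.3 and 34.3 in Treg libraries. Both cultures overlapped naive. Its change was -0.44 in Th0 (95% interval -0.91 to 0.02, adjusted p = 0.12) and -0.07 in Treg (-0.53 to 0.40, adjusted p = 0.85), so a doubling of Cpt1a lay outside both intervals. Slc25a20, the carrier, had 21.6 ± 10.2, 13.8 ± 2.50 and 18.5 ± 4.35 CPM (SD, n = 3) in naive, Th0 and Treg cells and no call. Crot, which makes medium-chain carnitine esters in peroxisomes, had 22.9 ± 10.5, 22.3 ± 6.37 and 28.6 ± 6.99 CPM. Crat, the short-chain enzyme, had means of 1.87 to 2.85 CPM, under the limit of 3 reads.

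**Figure D2:**
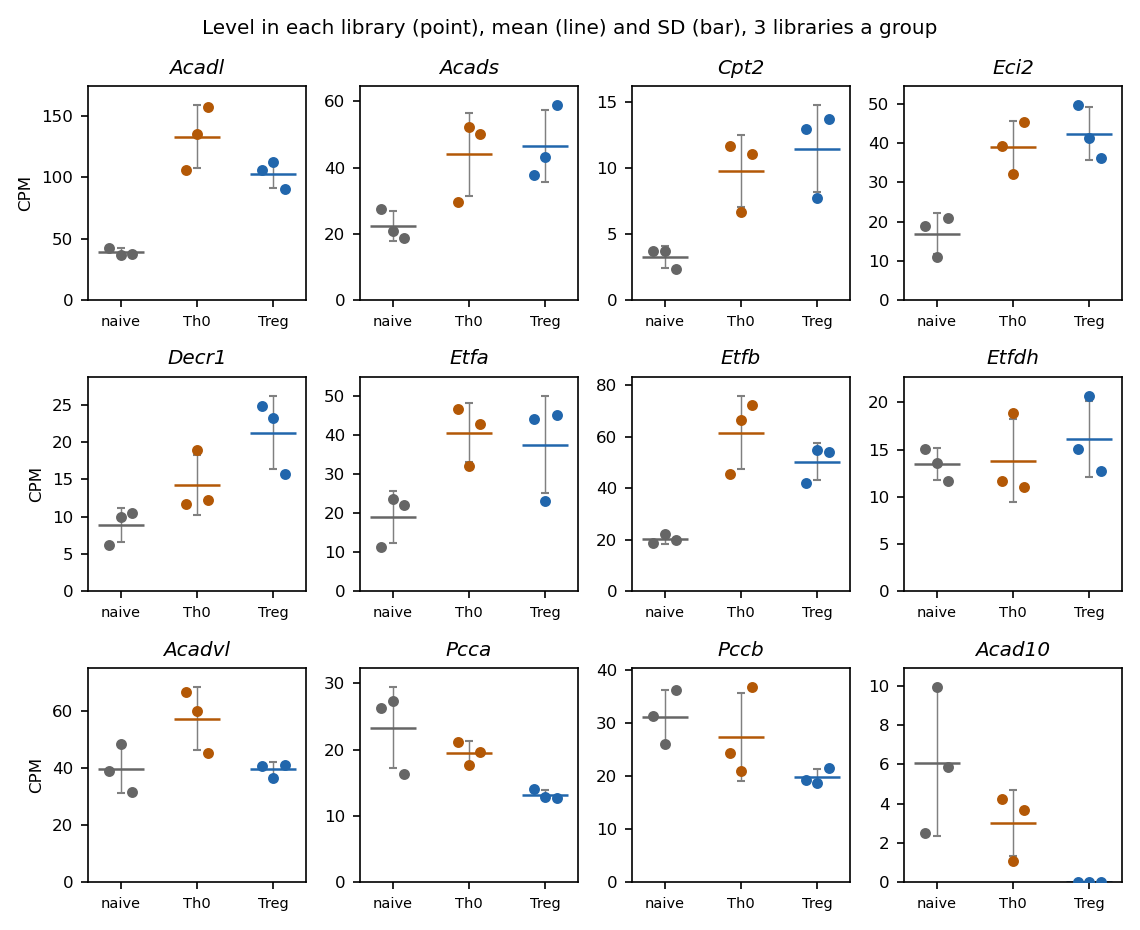
Level in CPM (y axis, linear, from 0) of 12 members in each of the 9 libraries of naive, Th0 and Treg cells; points are libraries, lines means and bars the SD of 3 libraries. Acadl, Acads, Cpt2, Eci2 and Etfb show no overlap between naive and either culture, and the 3 Treg points of Acad10 lie at 0.

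Among the later steps of the mitochondrial spiral, transcripts of the 2 subunits of the trifunctional protein went opposite ways in Th0, and that of the alpha subunit was called higher in Treg. Hadha (ENSMUSG00000025745, chr5:30119423-30154980), the alpha subunit with hydratase and dehydrogenase activity, had 103, 104 and 111 CPM in naive, 136, 135 and 167 in Th0 and 117, 154 and 131 in Treg libraries. Each culture library was above each naive one. Hadha changed by 0.45 (SE 0.13, adjusted p = 0.0080) in Th0, not past the threshold without Th0 replicate 3 (adjusted p = 0.054), with quantile scaling (0.057) or without the intensity trend (0.062). In Treg it changed by 0.33 (SE 0.13, adjusted p = 0.048), lost in 12 of 16 alternatives (adjusted p up to 0.25), among them those without any 1 naive replicate or Treg replicate 2 or 3. Hadhb (ENSMUSG00000059447, chr5:30155253-30184593), the beta subunit that carries the thiolase, had 35.1, 43.4 and 58.4 CPM in naive, 23.3, 32.2 and 33.1 in Th0 and 36.6, 30.9 and 30.4 in Treg libraries. Every Th0 library was below every naive one, while Treg and naive overlapped. Hadhb changed by -0.60 (SE 0.22, adjusted p = 0.037) in Th0, a call lost without naive replicate 2 or 3 or Th0 replicate 1 (adjusted p up to 0.20), without the trend (0.073) and in a fit of 2 groups (0.057). In Treg it was -0.45 (adjusted p = 0.12).

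The ratio of Hadha to Hadhb within a library was 2.93, 2.40 and 1.90 in naive, 5.82, 4.21 and 5.04 in Th0 and 3.21, 4.98 and 4.32 in Treg libraries. It was higher in each culture library than in each naive one, by 2.10-fold in Th0 and 1.73-fold in Treg. The two-sided exact permutation test gave p = 0.1 for both, the smallest that 3 libraries against 3 allow, and 0.45 after adjustment over 9 tests of subunit pairs. In the guide experiment the ratio ran from 3.65 to 6.48 over 8 libraries. The remaining enzymes of these steps had no call. Hadh, the short-chain hydroxyacyl-CoA dehydrogenase, had 43.2 ± 10.0, 56.4 ± 16.1 and 45.5 ± 9.71 CPM (SD, n = 3) in naive, Th0 and Treg cells, and the group means were 21.4 to 24.1 CPM for the hydratase Echs1, 30.0 to 39.7 for the dehydrogenase Hsd17b10 and 46.3 to 58.8 for the thiolase Acaa2.

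**Figure D3:**
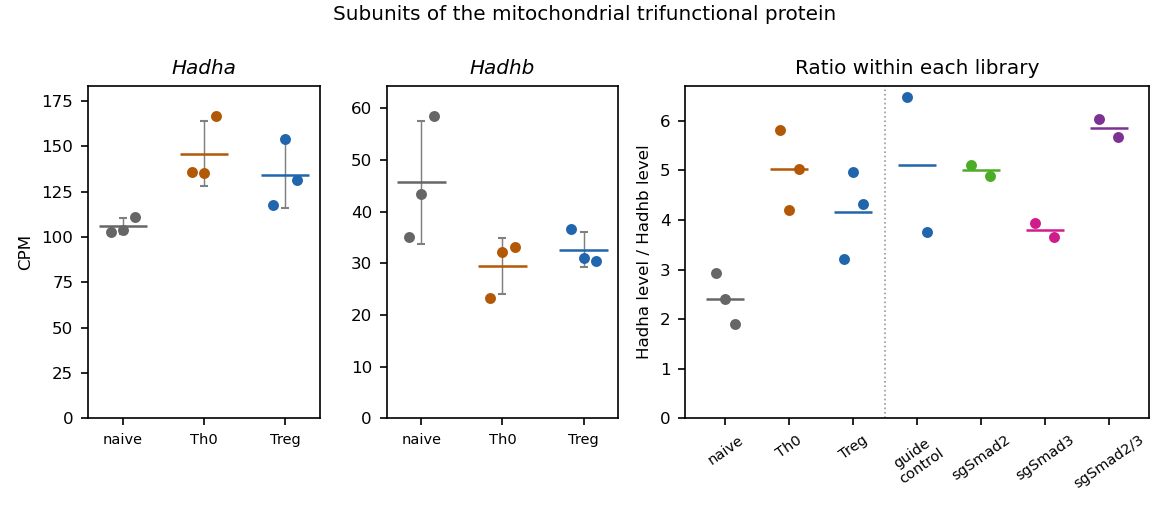
Levels of Hadha and Hadhb in CPM in the naive, Th0 and Treg libraries (left and middle; points are libraries, lines means, bars the SD of 3) and the ratio of both levels within each library of both experiments (right; the dotted line parts the experiments, lines are means). The naive ratios, 1.90 to 2.93, lie below those of every culture library, the lowest of which is 3.21.

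Hadha and Hadhb start back to back, 272 bases apart, and the interval between them is shown for that reason. It lies at chr5:30154981-30155252 (GRCm38.p6, RefSeq) and is given on the + strand, 5' to 3', reading towards Hadhb, with GC boxes in capitals.
Hadha-Hadhb interval: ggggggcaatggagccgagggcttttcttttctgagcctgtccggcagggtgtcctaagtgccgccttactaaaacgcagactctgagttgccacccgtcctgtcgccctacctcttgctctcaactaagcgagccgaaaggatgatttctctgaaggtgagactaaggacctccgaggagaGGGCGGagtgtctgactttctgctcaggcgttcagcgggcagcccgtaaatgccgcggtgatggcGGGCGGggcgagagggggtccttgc
GC boxes lay at bases 183 to 188 and 248 to 253, nearer to Hadhb, and 60.3% of the bases were G or C.

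Of the auxiliary enzymes that prepare double bonds for the spiral, Eci2 rose in both cultures and Decr1 in Treg. Eci2 (ENSMUSG00000021417, chr13:34977748-35027115), an enoyl-CoA isomerase, had 18.8, 11.2 and 21 CPM in naive, 39.2, 32.2 and 45.3 in Th0 and 49.5, 41.3 and 36.2 in Treg libraries. Its lowest culture library stood above its highest naive one. The change of Eci2 was 1.18 (SE 0.25, adjusted p = 0.00072), or 2.27-fold, in Th0 and 1.30 (SE 0.25, adjusted p = 0.00029), or 2.47-fold, in Treg. Decr1, the mitochondrial dienoyl-CoA reductase, had 6.27, 9.91 and 10.5 CPM in naive, 11.7, 18.9 and 12.2 in Th0 and 24.8, 23.2 and 15.7 in Treg libraries. The naive libraries were lowest. Decr1 changed by 1.17 (SE 0.34, adjusted p = 0.0091) in Treg and 0.62 (SE 0.34, adjusted p = 0.15) in Th0, and its difference between the cultures was 0.55 (adjusted p = 0.49). Eci1, the mitochondrial isomerase, had group means of 4.62 to 8.27 CPM and no call. Eci2 has a close paralog, Eci3, as the peroxisomal thiolase Acaa1a has in Acaa1b, and how reads common to such copies were counted is not known here, so both levels are uncertain to that extent.

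Both subunits of the electron transfer flavoprotein rose, while its oxidoreductase did not pass. Etfb (ENSMUSG00000004610, chr7:43444072-43457800) had 18.8, 22.3 and 19.9 CPM in naive, 45.6, 66.6 and 72.3 in Th0 and 42, 54.8 and 53.9 in Treg libraries. The lowest culture library was above the highest naive library. The change of Etfb was 1.53 (SE 0.21, adjusted p = 6.0e-06), or 2.88-fold, in Th0 and 1.26 (SE 0.21, adjusted p = 6.0e-05), or 2.39-fold, in Treg. Etfa (ENSMUSG00000032314, chr9:55454436-55512243) had 11.3, 23.5 and 22.2 CPM in naive, 46.6, 32.2 and 42.9 in Th0 and 44.1, 23.2 and 45.1 in Treg libraries. All Th0 libraries were above naive, and 1 Treg library fell within the naive range. Etfa changed by 1.10 (SE 0.29, adjusted p = 0.0051) in Th0 and 0.95 (SE 0.29, adjusted p = 0.015) in Treg, the latter lost without naive replicate 1 or Treg replicate 1 or 3 (adjusted p up to 0.075), with quantile scaling (0.079) and without the trend (0.068). Etfdh, which passes the electrons on to ubiquinone, had 15, 13.6 and 11.7 CPM in naive, 11.7, 18.9 and 11 in Th0 and 15.1, 20.6 and 12.7 in Treg libraries. These groups overlapped, with changes of 0.007 (95% interval -0.67 to 0.69, adjusted p = 0.99) in Th0 and 0.23 (-0.45 to 0.91, adjusted p = 0.62) in Treg. The ratio of Etfa to Etfb was 0.60 to 1.12 in naive, 0.48 to 1.02 in Th0 and 0.42 to 1.05 in Treg libraries, with exact permutation p of 0.2 or more.

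The 5 members grouped here as peroxisomal had no call in Treg and 1 in Th0, at the limit of detection. Eci2 was grouped with the auxiliary enzymes and is not among them. Ehhadh, the bifunctional enzyme, had 0, 0 and 0 CPM in naive, 2.12, 2.22 and 1.22 in Th0 and 1.08, 0 and 1.96 in Treg libraries, from 0, 5 and 3 reads. It passed the filter on low values only through the cultures, and all levels are under the limit of 3 reads, so no fold is given. Its Th0 call (adjusted p = 0.021) was lost with edgeR (0.068), without any 1 naive replicate and without Th0 replicate 1 or 2 (up to 0.064). Acox3, an acyl-CoA oxidase for branched chains, had 21.3, 14.9 and 22.2 CPM in naive, 11.7, 12.2 and 11 in Th0 and 22.6, 18.7 and 17.6 in Treg libraries. The Th0 libraries lay below all the others, with a change from naive of -0.68 (SE 0.29, adjusted p = 0.065) that passed in 5 of 16 alternatives. Group means were 11.4 to 16.7 CPM for Hsd17b4, the D-bifunctional protein, 13.6 to 14.9 for the thiolase Acaa1a and 9.52 to 18.4 for the reductase Decr2, none with a call.

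Propionyl-CoA carboxylase, which feeds the last carbons of odd-numbered chains into the citric acid cycle, had 1 subunit called lower in Treg. Pcca, the alpha subunit, had 26.3, 27.3 and 16.4 CPM in naive, 21.2, 17.8 and 19.6 in Th0 and 14, 12.9 and 12.7 in Treg libraries. Pccb, the beta subunit, had 31.3, 26 and 36.2 CPM in naive, 24.4, 21.1 and 36.7 in Th0 and 19.4, 18.7 and 21.5 in Treg libraries. For both genes all Treg libraries were below all naive ones. The change in Treg was -0.74 (SE 0.28, adjusted p = 0.041) for Pcca and -0.62 (SE 0.25, adjusted p = 0.057) for Pccb. The Pcca call was lost in 7 of 16 alternatives, including those without naive replicate 1 or 2 or any 1 Treg replicate (adjusted p up to 0.15), and Pccb passed in 7 of 16. In Th0 the changes were -0.22 and -0.21 (adjusted p = 0.58 and 0.54).

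Between Treg and Th0 cultures, which differ by TGF-beta in the medium, 1 of 33 members was called, Acad10. That is 3.03% of the members against 5.44% of all genes (2.99% higher and 2.45% lower in Treg). The median log2 change of the members was 0.10 beside -0.0085 for all genes. Since Acad10 was at 0 in Treg and near the limit of 3 reads in Th0, no fold is given. Its adjusted p of 0.045 lay between 0.011 and 0.17 over 15 alternatives and missed the threshold in 10, among them those without Th0 replicate 1 or 3 or any 1 Treg replicate. At an unadjusted p under 0.05 there were 5 of 33 members and 2225 of 14165 genes.

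Treg and Th0 libraries did not overlap for 5 of the 33 members, against 21.2% of all genes. Cpt1a, at 35.5, 39.3 and 34.3 CPM in Treg against 27.5, 30.0 and 25.7 in Th0, differed by 0.38 (95% interval -0.09 to 0.85, adjusted p = 0.46). Acox3, at 17.6 to 22.6 CPM in Treg against 11 to 12.2 in Th0, differed by 0.70 (0.10 to 1.30, adjusted p = 0.21). Those were the members with Treg above Th0. Acadvl, at 36.7 to 41.1 against 45.3 to 66.7 CPM, differed by -0.51 (-0.92 to -0.09, adjusted p = 0.19). Pcca, at 12.7 to 14 against 17.8 to 21.2 CPM, differed by -0.53 (-1.11 to 0.06, adjusted p = 0.39). Both stood lower in Treg, as did Acad10, and of these 5 genes Acad10 alone passed. Acadl, higher than naive in both cultures, differed between them by -0.36 (-0.68 to -0.03, adjusted p = 0.26), and the reductase Decr2 by -0.91 (-1.76 to -0.06, adjusted p = 0.28).

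The intervals state what 3 libraries against 3 could resolve. The difference between Treg and Th0 lay within -0.39 to 0.15 for Hadha, -0.70 to 0.16 for Etfb and -0.67 to 1.09 for Cpt2. A doubling in Treg over Th0 was thus outside the interval for Hadha and Etfb and inside it for Cpt2. Standard errors of the members ran from 0.13 to 0.60.

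**Figure D4:**
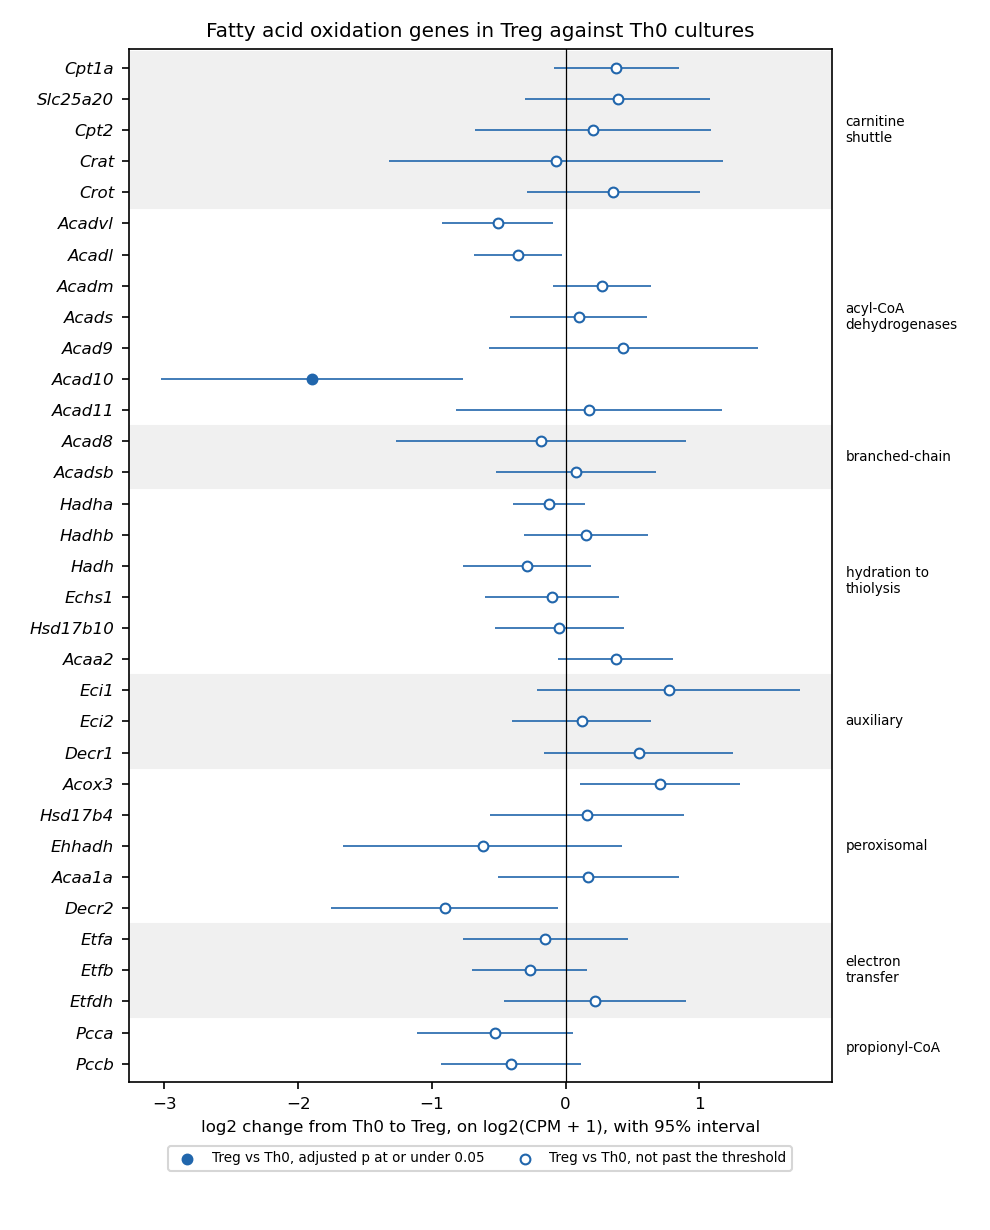
Log2 change of each of the 33 genes from Th0 to Treg cultures on log2(CPM + 1) (x axis), with the 95% interval as a bar, 3 libraries in each group; the filled symbol passed the test. Acad10, at 0 in all 3 Treg libraries, is the filled symbol, and the position of its point depends on the pseudocount.

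In the guide experiment the targeted transcripts were read first. Smad2 had 37 and 29 in the control, 12 and 24 in sgSmad2, 25 and 30 in sgSmad3 and 13 and 18 in sgSmad2/3 libraries, in CPM that the submitters rounded to whole numbers. The 4 libraries labelled with the Smad2 guide were below the other 4, by -0.85 (SE 0.23, adjusted p = 0.49). Smad3 had 30 and 34 in the control, 44 and 56 in sgSmad2, 26 and 25 in sgSmad3 and 41 and 37 in sgSmad2/3 libraries. It was below the control in sgSmad3 and above it in sgSmad2/3 libraries, neither past the test (adjusted p = 0.65 and 0.72). A guide cuts the gene and need not remove its 3' tag, so these levels do not check the editing, and groups are named by their labels.

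No fatty acid oxidation gene was called in a guide comparison. Of the 33 genes 31 passed the filter of 3 or more in at least 2 libraries, and Crat, at 1 to 3, and Ehhadh, at 0 to 2, did not. Limma called 0 of 31 in sgSmad2, sgSmad3 and sgSmad2/3 against the control, where 0.00837%, 0.0837% and 0.452% of 11950 genes passed. It called 0 of 31 between libraries with and without the Smad3 guide and 0 of 31 for the Smad2 guide, where 0.837% (0.561% lower) and 0.0753% of all genes passed. With shares this low among all genes, a count of 0 of 31 does not set the members apart. With an unadjusted p under 0.05 there were 1, 0, 2, 2 and 1 members in these 5 comparisons, against 408, 1284, 1217, 1701 and 571 of all genes, and no alternative called a member. A test of whether sgSmad2/3 departed from the single guides added together called 0 of 31 members and 0 of 11950 genes (limma; 0 and 370 at an unadjusted p under 0.05), so it does not set the members apart. All guide groups were set against the same control libraries. The summed level of the 33 genes was 1014 and 998 in the control, 965 and 941 in sgSmad2, 959 and 982 in sgSmad3 and 953 and 978 in sgSmad2/3 libraries.

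The member nearest to the threshold was Acad11, an acyl-CoA dehydrogenase with a kinase-like domain. It had 12 and 9 in the control, 13 and 13 in sgSmad2, 7 and 4 in sgSmad3 and 5 and 6 in sgSmad2/3 libraries. The 4 libraries with the Smad3 guide were below the 4 without, which held for 1 of 31 members, and 6.66% of all genes did not overlap in this comparison. The difference of Acad11 was -0.98 (SE 0.29, adjusted p = 0.13), with adjusted p of 0.085 to 0.54 over the alternatives. For the Smad2 guide 1 member did not overlap, against 1.84% of all genes: Acadvl, at 39 to 43 with the guide and 44 to 53 without, differed by -0.21 (SE 0.15, adjusted p = 0.99).

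Slc25a20, the carnitine carrier, had 25 and 26 in the control, 20 and 21 in sgSmad2, 19 and 22 in sgSmad3 and 17 and 15 in sgSmad2/3 libraries. Its lowest values were in sgSmad2/3, at -0.64 (SE 0.27, adjusted p = 0.44) from the control. Acox3 had 26 and 16 in the control, 19 and 15 in sgSmad2, 16 and 14 in sgSmad3 and 13 and 9 in sgSmad2/3 libraries, a difference of -0.86 (SE 0.34, adjusted p = 0.39) in sgSmad2/3. Crot had 32 and 23 in the control, 15 and 19 in sgSmad2, 22 and 22 in sgSmad3 and 27 and 18 in sgSmad2/3 libraries, with sgSmad2 lowest at -0.65 (SE 0.30, adjusted p = 1). Acad9, which also assembles respiratory complex I, had 2 and 3 in the control, 5 and 2 in sgSmad2, 4 and 5 in sgSmad3 and 8 and 5 in sgSmad2/3 libraries, with sgSmad2/3 highest at 1.08 (SE 0.53, adjusted p = 0.51). Hadh had 62 and 78 in the control, 60 and 42 in sgSmad2, 60 and 43 in sgSmad3 and 61 and 56 in sgSmad2/3 libraries, with sgSmad2 at -0.46 (SE 0.23, adjusted p = 1) and sgSmad3 at -0.45 (SE 0.23, adjusted p = 0.51). The other members furthest from the control were low or scattered: Acadsb, a branched-chain dehydrogenase, had 9 and 17 in the control, 20 and 19 in sgSmad2, 18 and 12 in sgSmad3 and 22 and 17 in sgSmad2/3 libraries. Eci1 had 2 and 3 in the control, 5 and 3 in sgSmad2, 7 and 4 in sgSmad3 and 2 and 5 in sgSmad2/3 libraries, and the smallest adjusted p of a guide comparison was 0.57 for Acadsb and 0.59 for Eci1. Cpt2 had 12 and 13 in the control, 11 and 8 in sgSmad2, 11 and 5 in sgSmad3 and 8 and 17 in sgSmad2/3 libraries, with both sgSmad3 libraries below both control ones at -0.67 (SE 0.43, adjusted p = 0.60). Acad10, whose levels are given above, differed by -0.53 (SE 0.61, adjusted p = 1) in sgSmad2, and the sign turned without sgSmad2 replicate 1 (0.26). Eci2 had 46 and 40 in the control, 28 and 43 in sgSmad2, 52 and 46 in sgSmad3 and 30 and 37 in sgSmad2/3 libraries, and the difference of Eci2 by the Smad2 guide was -0.42 (SE 0.18, adjusted p = 0.98). Acad8 had 10 and 14 in the control, 11 and 8 in sgSmad2, 11 and 6 in sgSmad3 and 6 and 10 in sgSmad2/3 libraries, in overlapping groups for sgSmad3 and the control. When 2 libraries met 2, 12 of the 31 members did not overlap in sgSmad2 (4 higher, 8 lower), against 23.8% of all genes (1546 higher, 1304 lower). In sgSmad3 it was 10 of 31 (3 higher, 7 lower), against 36.6% (2419 higher, 1955 lower). In sgSmad2/3 it was 12 of 31 (3 higher, 9 lower), against 39.2% (2634 higher, 2048 lower). The guide groups share the control libraries, and the difference in direction was not tested. Traces of other cells differed between the guide groups, and not all in the same direction. The summed level of 9 myeloid genes was 3 to 5 in control, 6 to 10 in sgSmad2, 9 to 52 in sgSmad3 and 19 to 70 in sgSmad2/3 libraries, with Itgam at 0 in all. That of 5 red cell genes was 13 to 19, 24 to 25, 32 to 87 and 70 to 144, with Alas2 at 0 in all. The sum of 8 CD8, NK and gamma-delta genes was 71 to 77, 89 to 108, 91 to 107 and 100 to 110. For 10 B cell genes it was 95 to 99, 76 to 83, 79 to 107 and 64 to 93, so sgSmad2 and sgSmad2/3 lay below the control. Gm42418 took 5.99 to 6.70% of the reads in control and 4.81 to 5.85% in sgSmad3 libraries, without overlap, while its share in sgSmad2 and sgSmad2/3 overlapped the control. The part of these transcripts in the members' values was not tested.

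**Figure D5:**
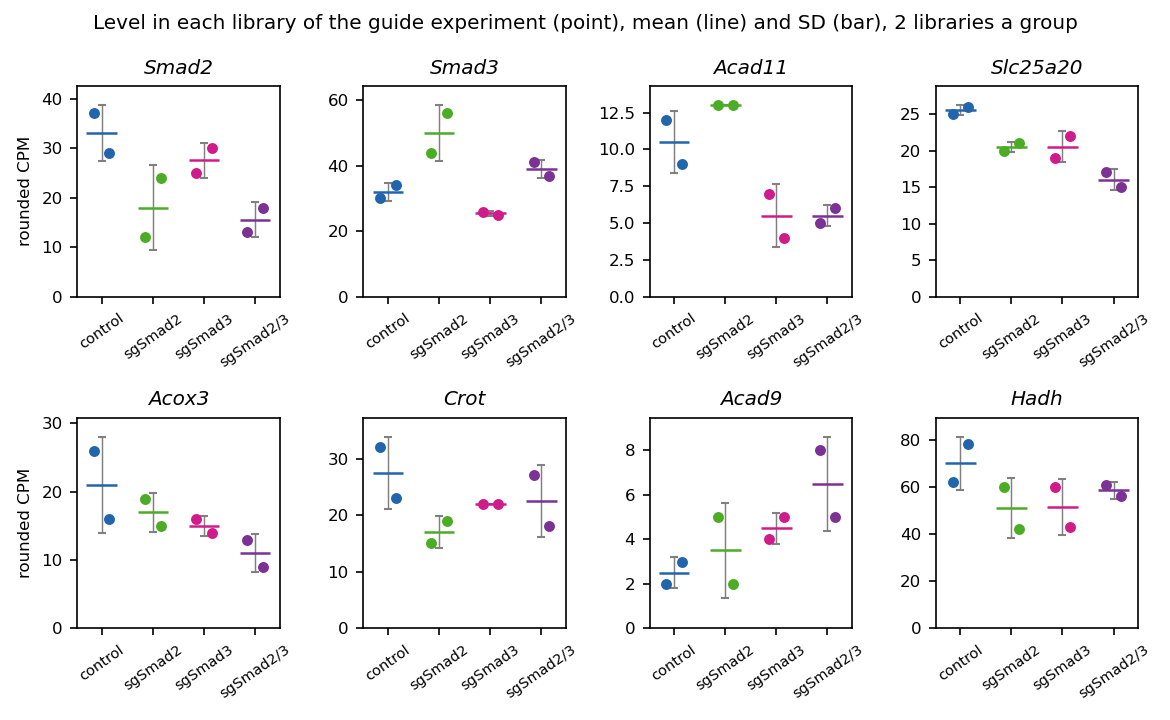
Level, in CPM deposited as whole numbers (y axis, linear, from 0), of the targeted genes Smad2 and Smad3 and of 6 members in each library of the guide experiment; points are libraries, lines means and bars the SD of 2. The 4 Acad11 values with the Smad3 guide, 4 to 7, lie below the 4 without it, 9 to 13; none of these members passed the test.

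Members that rose in both cultures are given here as values, since the tables were normalised separately. Over the 8 guide libraries Acadl ran from 69 to 104, Acads from 37 to 59, Etfb from 47 to 73, Etfa from 37 to 55, Hadha from 109 to 142, Eci2 from 28 to 52 and Cpt2 from 5 to 17. The 2 libraries of a group left standard errors of 0.18 to 0.61 for the members. Differences larger than their standard error were also not called, such as 1.08 (SE 0.53) for Acad9 and -0.86 (SE 0.34) for Acox3 in sgSmad2/3.

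A list of 80 other genes, of carnitine and acyl-CoA transport, oxidation and its regulation, went both ways in culture. Of these, 67 were tested in the cell-type experiment. Against naive cells 7 were higher and 9 lower in Treg (23.9%) and 5 higher and 9 lower in Th0 (20.9%), beside the 39.9% and 41.9% of all genes. Limma called 0 of 67 between Treg and Th0, where 5.44% of all genes passed, and 0 of 66 in each guide comparison, where at most 0.837% did. Dbi, the acyl-CoA binding protein, rose from 68.3 ± 15.9 CPM in naive to 326 ± 23 in Th0 and 382 ± 21.3 in Treg cells (SD, n = 3; limma adjusted p = 1.1e-10 and 2.7e-11). Acaca, the acetyl-CoA carboxylase whose product malonyl-CoA inhibits Cpt1a, rose from 11 ± 5.70 to 59.1 ± 13.7 and 52 ± 9.25 CPM (adjusted p = 2.8e-06 and 7.4e-06). Acaca is counted among the 7 and 5 higher genes but is not itself an oxidation enzyme. Pex11a, a peroxisome division factor, passed in Treg (adjusted p = 0.011) and in Th0 (0.050), but naive libraries held 2 reads of it, and the ratio of pooled reads was 5.97 in Treg (95% exact interval 1.42 to 53.3) and 4.62 in Th0 (0.985 to 43.4). Pex11a passed the filter on low values only through the cultures, where it was higher, and the 7 and 5 genes counted as higher include it. The Th0 call of Pex11a was lost in 12 of 16 alternatives, among them those without naive replicate 1 or 3 or Th0 replicate 1 or 2 (adjusted p up to 0.17).

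Of 19 regulators of oxidation genes tested, 4 were lower and 1 higher in Treg and 5 lower in Th0. Beside these 5 of 19 in each comparison stand the 39.9% and 41.9% of all genes called, and the 16.5% and 17.6% called lower. Ppargc1b, a coactivator of mitochondrial genes, fell from 56.5 ± 1.15 CPM in naive to 22.5 ± 7.05 in Th0 and 20.8 ± 2.31 in Treg cells (SD, n = 3; limma adjusted p = 0.00010 and 5.9e-05). Nrip1, a corepressor of oxidation genes, fell from 378 ± 40.1 to 114 ± 8.91 and 153 ± 21 CPM (adjusted p = 7.3e-10 and 4.0e-08). A coactivator and a corepressor were thus lower together, as was the deacetylase Sirt1, at 34.3 ± 4.05 CPM in Th0 and 38.3 ± 6.71 in Treg against 85 ± 29.5 in naive cells (adjusted p = 0.00024 and 0.00084). The regulator called higher in Treg was Rxra, at 14.7 ± 2.53 CPM against 6.54 ± 2.01 in naive cells (limma adjusted p = 0.038). Of the mitochondrial enzymes and thioesterases, Acot2 fell from 20.0 ± 4.32 CPM to 7.31 ± 4.54 in Th0 and 5.68 ± 2.56 in Treg cells (adjusted p = 0.012 and 0.0047; in Th0 0.069 without Th0 replicate 2). Aldh6a1, of valine breakdown, fell from 7.75 ± 2.02 to 2.65 ± 1.36 and 1.55 ± 1.22 CPM (adjusted p = 0.047 and 0.0071), its Th0 call being lost without any 1 naive replicate or Th0 replicate 1 or 2 (up to 0.19). Mccc1, of leucine breakdown, fell in Treg from 17.4 ± 3.23 to 7.02 ± 2.59 CPM (adjusted p = 0.012), a call lost without naive replicate 3 (0.053) or Treg replicate 2 (0.066).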

How the data were processed

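RNA was measured with QuantSeq 3' tags in 17 of the 29 samples of the series; 4 other RNA libraries and 8 ATAC libraries were not analysed here. Listed in the submitters' processing notes, without role or order, are the build mm10 and the tools Subread 2.0.1, deepTools, STAR 2.7.9a and Bowtie2. The deposited table of naive, Th0 and Treg cells is called TPM but holds CPM, since each library sums to 1000000 and every value was a whole multiple of 1 read (tolerance 0.01). The deposited table of the guide experiment holds CPM that the authors rounded to whole numbers, treated as a score, with sums of 1000167 to 1000923.

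Values were tested on log2(value + 1) with limma 3.58.1 (R 4.3.3, intensity trend) in a fit of all groups of a table, and p-values were adjusted by Benjamini-Hochberg over all genes tested, with a threshold of 0.05. Fold changes are on this log2(value + 1) scale, which understates changes of low genes. Genes needed 1 CPM in at least 3 libraries in the first table (14165 genes) and a value of 3 in at least 2 libraries in the second (11950 genes); the value of 3 was chosen after seeing the data. Counts recovered from the first table (100% of values whole) were also tested with edgeR 4.0.16. Single ratios were tested by exact permutation over libraries (scipy 1.17.1), two-sided. Positions came from RefSeq GRCm38.p6. A separate reference list of gene names held 54409 of 54532 and 55154 of 55421 identifiers. Statistics were checked on simulated data. The rule for named genes was all 33 members, the 5 members furthest from 0 in each guide comparison, and the 8 other oxidation genes called with the largest change in each comparison of cell types. Sirt1 and Rxra in Treg were added after their values were seen. The members and lists were chosen with earlier results of these data known. Alternatives were other pseudocounts, filters, scalings, fits and leaving out each library. The replicate numbers of the labels were not taken as pairs (correlation of same-numbered libraries -0.0029 to 0.041 and 0.0091 to 0.24).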

Additional observations from a re-analysis of the deposited data

How the results depend on the processing

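Between Treg and Th0 the count of members called, 1, became 0 with a pseudocount of 5, without a filter, with a filter at 5, with quantile scaling, without the trend and with a replicate block, and ran from 0 to 1 when each library was left out. Against naive cells the count of 10 in Th0 ran from 6 (without Th0 replicate 1) to 9 and that of 10 in Treg from 7 to 9 with a library left out. The replicate block gave 10 and 11 members in these comparisons with naive cells. Directions turned for 3 values, none of them past the threshold: Hadhb between Treg and Th0 (-0.00425 without Th0 replicate 1, up to 0.24), Acad10 in sgSmad2 (0.26 without sgSmad2 replicate 1, -1.32 without sgSmad2 replicate 2) and Smad2 in libraries with the Smad3 guide (0.0386 without sgSmad2 replicate 2, -0.43 without sgSmad2 replicate 1); the cause was not tested. Over all genes, 770 calls between Treg and Th0 became 453 without the trend and 503 without Treg replicate 2. In the guide experiment 10 calls in sgSmad3, 54 in sgSmad2/3 and 100 with the Smad3 guide became 0 without a filter or with a filter at 1, and 28, 112 and 257 with the replicate block; with a filter at 2 they became 0, 27 and 39, and without the trend 0, 0 and 2. Fitting only the groups compared gave 0 calls in sgSmad3 and 0 in sgSmad2/3. With a library left out these counts ran from 0 to 3, from 0 to 8 and from 0 to 214 (without sgSmad2 replicate 2). The 1 call in sgSmad2 ran from 0 to 2 and the 9 with the Smad2 guide from 0 to 19 over the alternatives. No member was called in the guide experiment under any of these alternatives. Low levels limit Acad10, Ehhadh, Crat and Cpt2, which rest on few reads.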
